A study of Mus musculus with 17 samples.

Results

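Genes of the secretory pathway and of the unfolded protein response were followed in sorted skeletal stem cells (SSC) and bone cartilage stroma progenitors (BCSP) of fractured and uninjured mouse femora. The set holds 40 of the 18193 genes with a probe set of their own on the Affymetrix mouse expression array used, a chip that measures a transcript by the brightness of short matching probes. A probe set was taken as a member where the platform annotation gave it a single symbol and that symbol was one of the 40, which gave 88 of 34945 such probe sets, and the brightest on average stood for its gene. By role the members are 13 chaperones and folding enzymes of the endoplasmic reticulum (ER), 8 stress sensors and transcription factors, 5 subunits of the translocon and its partner complex, 7 COPII coat genes, 4 COPI coat genes and 3 cargo and retrieval receptors. All 40 passed the filter on low values, a level of log2 7.20 or more on at least 2 arrays, and each did so on all 17 arrays.

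Double-sorted cells from digested tissue were used, leaving out cells with CD45, Ter119 or Tie2 on their surface. All arrays came from female C57BL/6 mice, 9 with SSC and 8 with BCSP, 12 from callus and 5 from uninjured femora. Ovariectomy (OVX) or a sham operation was done at 8 weeks of age, the femur was cut at 14 weeks, and callus was taken 7 days later. Sham callus gave 4 arrays, OVX callus 2, and callus of OVX mice that received estradiol (OVX+E2) another 2. A further 2 callus arrays carry conflicting surgery labels (OVX in the title, sham in the treatment field) and 2 state no ovary surgery. The uninjured arrays came from sham mice (3 arrays, 2 of SSC and 1 of BCSP) and OVX mice (2 arrays). Each group of 1 surgery and 1 population holds 1 or 2 arrays, and nothing in the labels says how many mice gave the cells of an array, so p-values measure only the spread between these arrays.

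The titles begin with short codes of 3 forms, treated here as a possible batch since no label says what they stand for. Codes of 3 letters mark 4 callus and 3 uninjured arrays, and codes of 2 letters that end in U or I mark 2 callus and 2 uninjured arrays. The other 6 arrays, with codes of 2 letters that end in B or S, are all from callus, so the difference between callus and uninjured bone was measured within the first 2 forms only.

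Proteins bound for secretion enter the ER through the Sec61 translocon, are folded by chaperones and disulfide isomerases, and leave in vesicles built by the COPII coat. The COPI coat carries escaped ER residents back, with KDEL receptors recognizing their tail. When unfolded protein accumulates, the sensors IRE1 (gene Ern1), PERK (gene Eif2ak3) and ATF6 raise chaperone and export genes through the transcription factors XBP1, ATF4 and ATF6 itself. Osteoblasts and chondrocytes, which secrete collagen in bulk, rely on this machinery and on CREB3L1 and CREB3L2, relatives of ATF6 that are known for collagen export in bone and cartilage.

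The promoters of several members carry the sequence elements through which these factors are known to act. RefSeq promoters (build GRCm38.p6) were at hand for 33 of the 40 members, and the 250 bases before the start that the table gives for a gene were searched on both strands. The ER stress element, spelled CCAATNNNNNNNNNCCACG, stood in 7 of the 33 promoters against 0.13% of the 27025 genes in the table. The 7 belong to Hspa5, Hsp90b1, Calr, Canx, Pdia6, Dnajc3 and Creld2, all chaperones or folding enzymes. The element bound by XBP1, TGACGTGG, stood in the promoters of Sec24d, Copb1 and Kdelr3 and in 0.603% of all genes. Neither the related element ATTGGNCCACG (0.037% of all genes) nor the ATF4 composite element TGATGNAA (3.91%) was found in a member promoter, which says only that these letters are not in this window. A plain CCAAT box, which every ER stress element contains, stood in 21 of the 33 against 37.5% of all genes. The promoter of Hspa5 is shown over its 250 bases as the classical case, and the other matches with 20 bases on either side where the window allows, each 5′ to 3′ on the strand of its gene, with the fixed letters of the element in capitals. In Calr and Creld2 and at the second site of Hsp90b1 the ER stress element reads on the opposite strand, as does TGACGTGG in Copb1 and Kdelr3.
Hspa5, chr2:34771840-34772089, forward strand: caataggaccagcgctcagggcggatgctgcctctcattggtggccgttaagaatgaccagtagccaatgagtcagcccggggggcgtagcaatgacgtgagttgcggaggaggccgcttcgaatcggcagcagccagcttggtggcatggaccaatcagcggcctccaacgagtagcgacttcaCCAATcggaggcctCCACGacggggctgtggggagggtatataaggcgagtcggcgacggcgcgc
Hsp90b1, chr10:86705513-86705676, reverse strand: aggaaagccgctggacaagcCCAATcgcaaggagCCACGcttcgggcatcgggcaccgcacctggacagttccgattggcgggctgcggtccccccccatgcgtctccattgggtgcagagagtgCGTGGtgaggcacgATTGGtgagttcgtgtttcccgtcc
Calr, chr8:84847055-84847113, reverse strand: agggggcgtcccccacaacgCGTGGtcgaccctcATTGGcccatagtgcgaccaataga
Canx, chr11:50325780-50325838, reverse strand: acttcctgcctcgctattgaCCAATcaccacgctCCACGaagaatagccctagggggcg
Pdia6, chr12:17266471-17266529, forward strand: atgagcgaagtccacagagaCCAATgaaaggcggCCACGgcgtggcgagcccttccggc
Dnajc3, chr14:118937807-118937865, forward strand: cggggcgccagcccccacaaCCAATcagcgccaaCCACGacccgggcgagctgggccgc
Creld2, chr15:88819500-88819558, forward strand: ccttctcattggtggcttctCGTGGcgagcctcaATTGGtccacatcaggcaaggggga
Kdelr3, chr15:79516358-79516405, forward strand: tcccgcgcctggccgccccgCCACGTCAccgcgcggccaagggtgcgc
Sec24d, chr3:123267450-123267495, forward strand: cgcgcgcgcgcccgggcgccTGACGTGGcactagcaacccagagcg
Copb1, chr7:114254681-114254728, reverse strand: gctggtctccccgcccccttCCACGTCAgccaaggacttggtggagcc
In Hspa5 the element lies 65 to 47 bases before the start, and in the 3 genes with TGACGTGG the match ends 19 to 23 bases before it. For Sec24d that start lies inside the span annotated for the gene, downstream of its outermost start.

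Before the comparisons, some arrays stood apart. Ptprc, which encodes the CD45 antigen that the sort was set to exclude, lay between 13.79 and 14.74 (log2 signal) on the 5 uninjured arrays and between 6.58 and 13.53 on the 12 callus arrays. The mean of the 10 neutrophil markers measured ran from 13.62 to 14.41 in uninjured and from 9.38 to 13.60 in callus arrays, so blood cell transcripts were bright on every uninjured array. Eng, which encodes the CD105 antigen used to gate BCSP, was lower in SSC in each of the 8 array pairs. The Eng difference was small in the uninjured pairs, at -0.33 and -0.32, against -1.23 to -2.02 in the callus pairs. On the uninjured side the SSC array sham uninjured SSC 2 gave the lowest level for 21 of the 40 members, against 21.3% of all genes tested. In callus the BCSP array of unstated surgery did so for 26 of the 40, against 24.2% of all genes tested. In bulk samples a lower level can mean fewer cells that express a gene or less RNA per cell, and these cannot be told apart.

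Secretory pathway transcripts gave higher signal on callus than on uninjured arrays in nearly every part of the route. Of the 40 members 30 were higher in callus, 1 was lower and 9 did not pass the test (limma, Benjamini-Hochberg adjusted p under 0.05 over 14504 genes, with population and code form in the fit and each array pair as a random block). Among all genes tested 38.8% passed, 20.9% higher and 17.9% lower, against 75% of the members higher. The median difference of the members was 0.91 on the log2 scale, and that of all genes was 0.02. For 20 of the 40 every callus array lay above every uninjured array, which held for 8.45% of all genes.

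**Figure D1:**
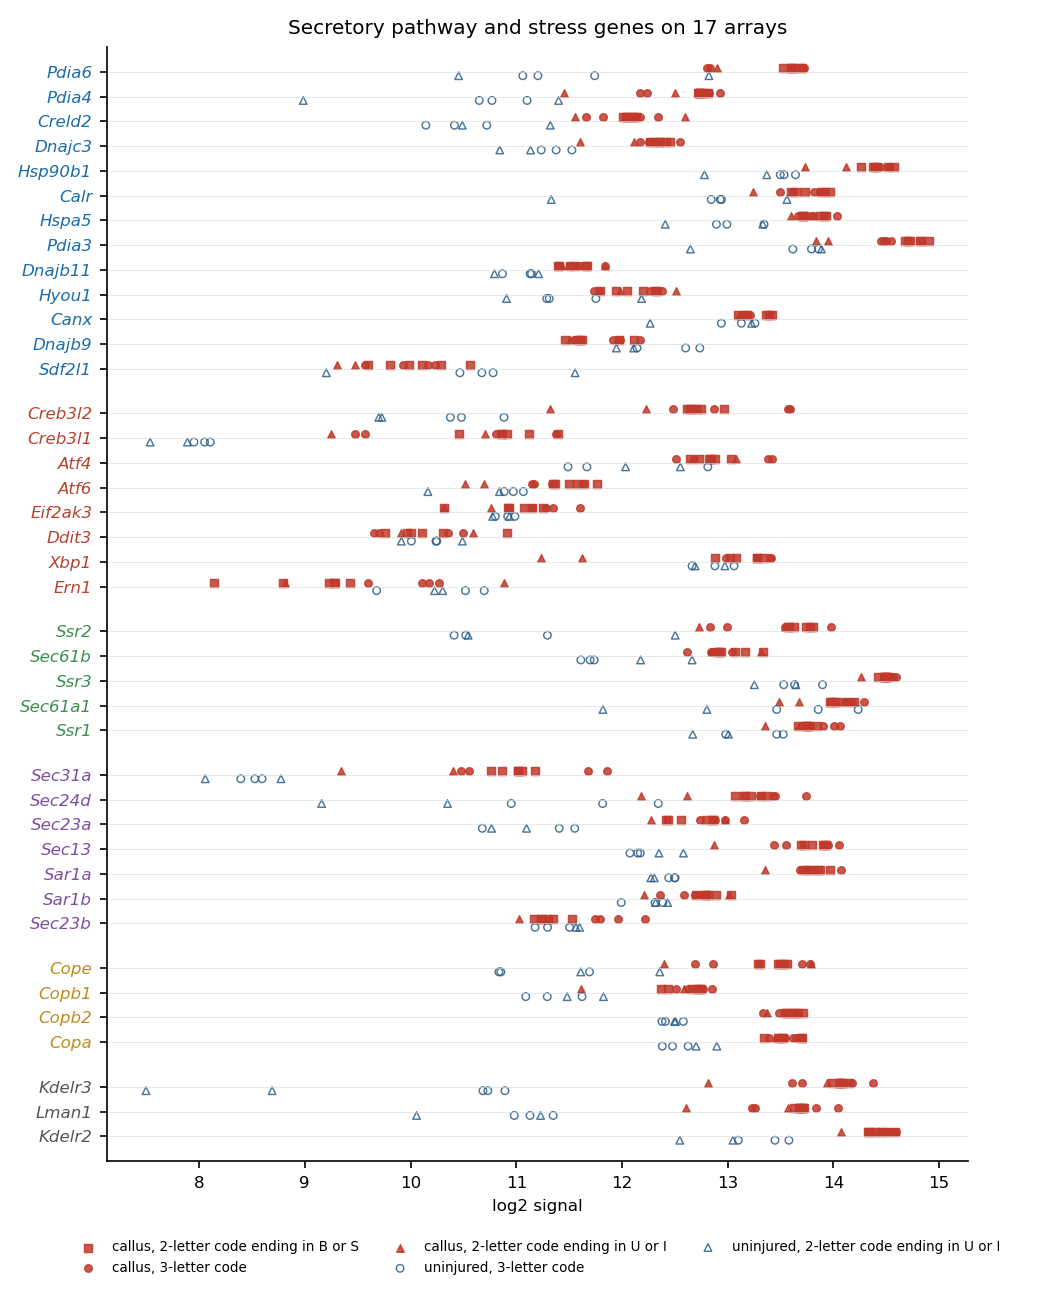
Level of each of the 40 genes on the 17 arrays, on the log2 scale, with callus arrays as filled and uninjured arrays as open symbols and the symbol giving the form of the title code; gene names are coloured by role and ordered within a role by the difference. The 3 receptors lie further right on every callus array, while Ddit3, Xbp1, Ern1 and Eif2ak3 overlap.

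The chaperones and folding enzymes were higher in callus in 10 of 13 cases and lower in 1. The 7 genes with an ER stress element in their promoter, all of this group, held 6 that were higher and Canx, which was not called. That share is near the 10 of 13 of the whole group, and a link between element and difference was not tested. Hspa5, which encodes BiP, the main ER chaperone, was 13.59 at its lowest, 13.79 at the median and 14.03 at its highest over the 12 callus arrays. In uninjured bone it was 13.33 in sham BCSP, 13.34 and 12.41 in sham SSC, 12.99 in OVX BCSP and 12.89 in OVX SSC. No uninjured array reached the callus range, and the difference was 0.77 (SE 0.16, adjusted p = 0.0012), or 1.70-fold. Hsp90b1, the ER member of the HSP90 family, differed by 0.91 (SE 0.12, adjusted p = 2.3e-05) and likewise did not overlap. The steepest rises were those of the disulfide isomerase genes Pdia6 and Pdia4, by 1.79 (SE 0.35) and 1.70 (SE 0.34), or 3.46-fold and 3.26-fold. Pdia4 ran from 11.45 to 12.93 in callus, and its uninjured values were 11.40 in sham BCSP, 10.77 and 8.99 in sham SSC, 11.10 in OVX BCSP and 10.65 in OVX SSC. Sham BCSP was the highest and sham SSC 2 the lowest uninjured array, a span of more than 2 log2 units within one condition. Creld2, a secreted ER stress protein, rose by 1.43 (SE 0.22, adjusted p = 1.1e-04), and the co-chaperone gene Dnajc3 by 0.93 (SE 0.13, adjusted p = 5.9e-05).

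Some chaperone genes stood outside this pattern. Dnajb9, which encodes the co-chaperone ERdj4, was the only member called lower, and was lower in callus by 0.47 on the log2 scale (SE 0.18, adjusted p = 0.046), with uninjured values from 11.95 to 12.74 and callus values from 11.46 to 12.18. The ranges overlap, and the call was lost without any one of 12 of the 17 arrays. Sdf2l1, part of the complex around BiP, differed by -0.82 (SE 0.34) and did not pass the test (adjusted p = 0.067). Its uninjured values spread from 9.20 in sham SSC 2 to 11.56 in sham BCSP, wider than its whole callus range of 9.31 to 10.56. Canx, the membrane lectin chaperone calnexin, was 0.20 higher (SE 0.15, adjusted p = 0.29), while Calr, its soluble counterpart calreticulin, was called at 0.82 (SE 0.27, adjusted p = 0.024). The Calr difference was 0.53 without sham uninjured SSC 2, and its call was lost without the callus SSC array of unstated surgery. Hyou1, a large HSP70 relative, was called at 0.60 with an adjusted p of 0.047 and lost its call without any one of 12 arrays. A Hyou1 probe set of nearly equal mean level (11.87 against 11.93) gave 1.49 (adjusted p = 0.0068) when fitted on its own. A dimmer one gave 0.55 (adjusted p = 0.14).

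Of the 8 stress sensors and transcription factors only 3 were called, all higher, and the classical sensors were not among them. Creb3l2 lay between 11.32 and 13.59 in callus (median 12.68) and at 9.70 in sham BCSP, 10.38 and 9.73 in sham SSC, 10.88 in OVX BCSP and 10.48 in OVX SSC. Creb3l1 lay between 9.24 and 11.39 in callus (median 10.83) and between 7.54 and 8.11 in uninjured bone. Neither gene overlapped between the groups. Their differences were 2.37 (SE 0.23, adjusted p = 1.1e-06) and 2.27 (SE 0.35, adjusted p = 1.1e-04), or 5.17-fold and 4.81-fold. Atf4, the effector of the PERK branch, was higher by 0.85 (SE 0.24, adjusted p = 0.0092), though its highest uninjured array, sham SSC 1 at 12.81, stood within the callus range of 12.51 to 13.42. In a fit of every probe set on its own, the dimmer Atf4 probe sets gave 0.43 (adjusted p = 0.18) and 0.16 (adjusted p = 0.63), neither called.

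The sensors themselves gave small differences with intervals on both sides of 0. For Atf6 the difference was 0.24 (95% interval -0.10 to 0.58), for Eif2ak3 0.17 (-0.26 to 0.61) and for Ern1 -0.29 (-1.07 to 0.48). Ddit3, the gene of the apoptosis factor CHOP, differed by -0.05 (-0.58 to 0.47). These intervals allow changes on either side of 0, so a lack of change was not shown. Xbp1 differed by -0.25 (-0.80 to 0.30) over all arrays, but the code forms disagreed. Among arrays with codes of 3 letters its difference was 0.43 (adjusted p = 0.25), and among those with codes ending in U or I it was -1.40 (adjusted p = 0.12). Both callus arrays of the latter form were low, at 11.23 in SSC and 11.62 in BCSP, where the other 10 callus arrays ran from 12.88 to 13.41 and the uninjured arrays from 12.66 to 13.06. Its 4 probe sets also gave different answers, with differences of -0.25, -0.58 (adjusted p = 0.087), 0.65 (adjusted p = 0.017) and 0.70 (adjusted p = 0.083) in a fit of every probe set on its own. The array does not tell the spliced, active Xbp1 message from the unspliced one by gene symbol, and no probe set was assigned to either.

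All 5 translocon genes were higher in callus. Ssr2, a subunit of the translocon-associated complex, was 12.73 to 13.98 in callus (median 13.58) and 12.50 in sham BCSP, 11.30 and 10.55 in sham SSC, 10.52 in OVX BCSP and 10.41 in OVX SSC when uninjured. The sham BCSP array came closest to callus, and the difference was 2.20 (SE 0.34, adjusted p = 1.0e-04), or 4.61-fold. Ssr3, of the same complex, showed the least spread of the members in callus (SD 0.09, n = 12) and rose by 0.90 (SE 0.10, adjusted p = 5.8e-06). Its other probe set gave 0.27 (adjusted p = 0.084) in a fit of every probe set on its own. Sec61b, a small subunit of the channel, rose by 0.98 (SE 0.16), Sec61a1, which forms the channel itself, by 0.65 (SE 0.19) and Ssr1 by 0.64 (SE 0.12). Sec61a1 overlapped, with OVX uninjured BCSP at 14.23 against a callus range of 13.49 to 14.29, and its call was lost without the callus SSC array of unstated surgery. When each probe set was fitted on its own, 5 of the 6 for Sec61a1 were called higher, at up to 1.96. The uncalled probe set gave 0.39 (adjusted p = 0.31).

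In the COPII coat, which buds vesicles from the ER, 5 of 7 genes were higher in callus and the gene pairs split. Sec23a, an inner coat subunit, rose by 1.75 (SE 0.18, adjusted p = 2.7e-06), from uninjured levels of 10.68 to 11.55 to callus levels of 12.28 to 13.15. Its paralog Sec23b differed by 0.24 (95% interval -0.16 to 0.63, adjusted p = 0.34). Likewise the GTPase gene Sar1a rose by 1.32 (SE 0.11, adjusted p = 2.8e-07), the smallest p of the coat genes, whereas Sar1b differed by 0.34 (0.02 to 0.66, adjusted p = 0.086). The interval of Sar1b ended at 0.66 where that of Sar1a began at 1.09, and that of Sec23b ended at 0.63 where that of Sec23a began at 1.36, but the difference within a pair was not tested. Sec24d, the cargo-binding subunit known for its role in procollagen export, was 12.18 to 13.74 in callus and 10.35 in sham BCSP, 10.95 and 9.16 in sham SSC, 12.34 in OVX BCSP and 11.82 in OVX SSC. Sec24d overlapped, with OVX uninjured BCSP inside the callus range and OVX uninjured SSC the next highest uninjured array. The difference was 2.09 (SE 0.26, adjusted p = 1.3e-05). The outer coat genes Sec31a and Sec13 rose by 2.21 (SE 0.31) and 1.34 (SE 0.18), or 4.64-fold and 2.54-fold, with no overlap in either.

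The 4 COPI genes were all higher in callus. Copb2 lay at 13.33 to 13.72 in callus and at 12.50 in sham BCSP, 12.38 and 12.51 in sham SSC, 12.41 in OVX BCSP and 12.58 in OVX SSC, a gap that no array bridged. Its difference was 1.04 (SE 0.10, adjusted p = 1.6e-06). Copa rose by 0.91 (SE 0.11), Copb1 by 1.06 (SE 0.20) and Cope by 1.76 (SE 0.30), or 1.88-fold, 2.08-fold and 3.39-fold. Copb1 alone of the 4 overlapped, because the callus BCSP array of unstated surgery read 11.61, below the 11.83 of sham uninjured SSC 2.

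All 3 cargo and retrieval receptors were higher in callus, and Kdelr3 and Lman1 had the widest differences of all members. Kdelr3, an isoform of the receptor that returns escaped chaperones to the ER, was 12.81 to 14.37 in callus (median 14.06). In uninjured bone it was 7.50 in sham BCSP, 10.89 and 8.69 in sham SSC, 10.69 in OVX BCSP and 10.73 in OVX SSC. All uninjured arrays were far below callus, and the 2 with codes ending in U or I were the lowest. The difference was 3.99 (SE 0.32, adjusted p = 1.9e-07), or 15.9-fold, and was larger than that of 99.7% of the genes tested. Lman1, the lectin receptor that loads glycoproteins into COPII vesicles, rose by 2.44 (SE 0.23, adjusted p = 1.1e-06), and Kdelr2 by 1.25 (SE 0.12, adjusted p = 1.3e-06). Neither overlapped between the groups.

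**Figure D2:**
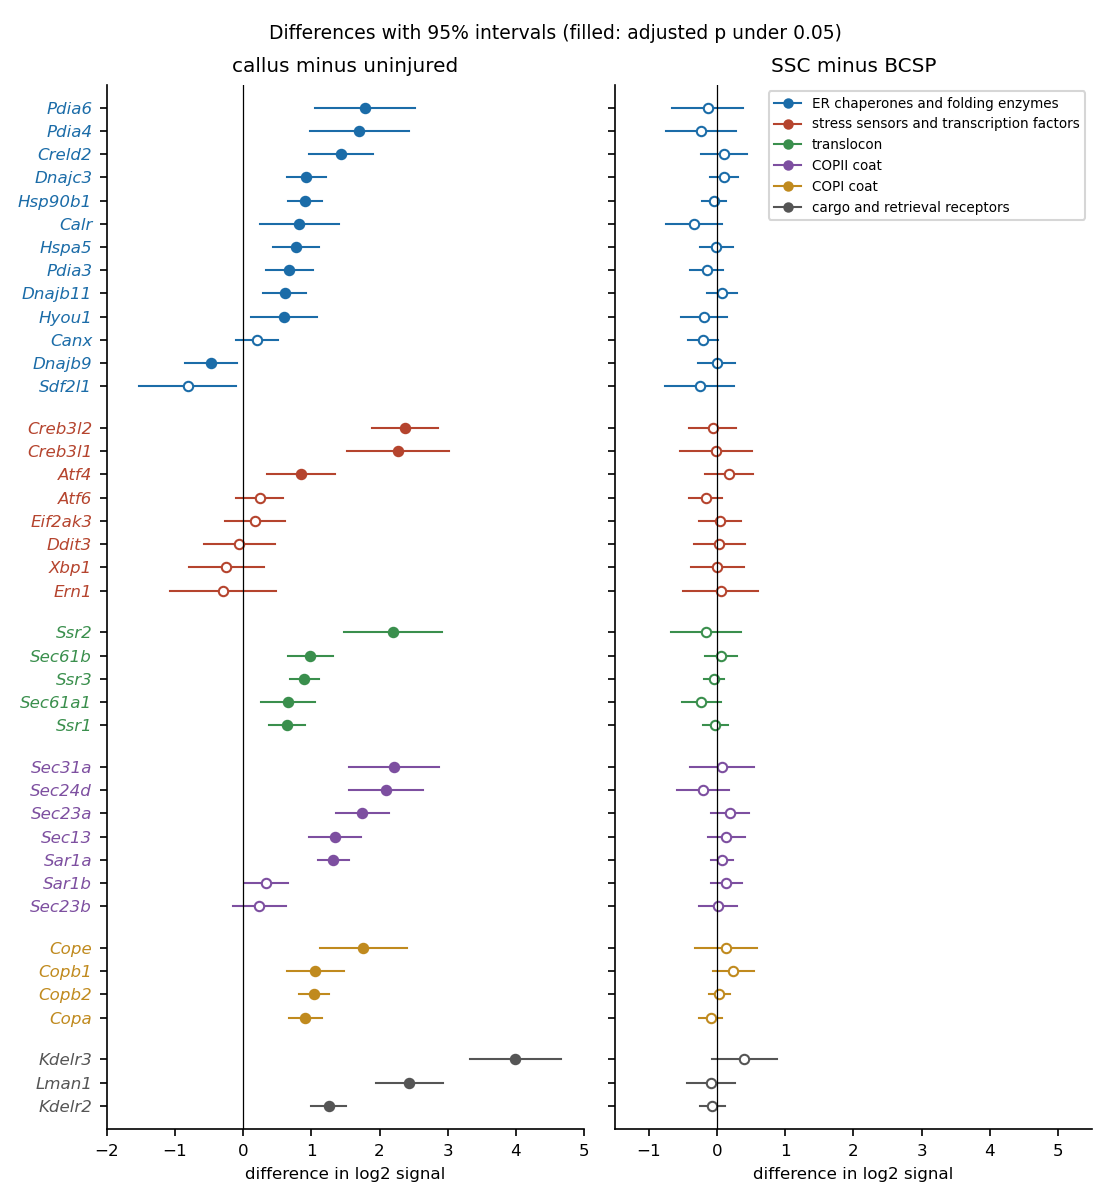
Difference in log2 signal for each of the 40 genes, callus minus uninjured on the left and SSC minus BCSP on the right, with bars for the 95% interval and filled points for adjusted p under 0.05. On the left 30 points are filled above 0 and 1 (Dnajb9) below it, and on the right none is filled.

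The other genes of the route, listed by function, moved in the same direction in the main. Of 89 further secretory genes tested 56 were higher, 8 lower and 25 not called, with a median of 0.70. Of the 11 oligosaccharyltransferase genes, whose products attach sugar chains to entering proteins, 9 were higher and 0 lower, and the catalytic subunit gene Stt3a, of smallest p, differed by 1.19 (SE 0.13). Signal recognition and signal peptidase genes were higher in 12 of 16, with the receptor gene Srprb at 2.14 (SE 0.26), and lower in 1, Sec11c at -1.07 (SE 0.19). Oxidative folding genes were higher in 10 of 12, with Fkbp14 at 3.68 (SE 0.35) and Txndc5 at 2.76 (SE 0.30), while the oxidase genes Ero1b and Ero1a were both lower, at -2.19 (SE 0.26) and -1.01 (SE 0.27). Genes of ER-associated degradation were higher in 7 of 13 with a median of 0.52. Further coat and tether subunits were higher in 14 of 25 and lower in 2, Tmed2 and Tmed10, and the COPI gene Copz2 stood out at 3.67 (SE 0.27) where its paralog Copz1 differed by 0.13 (SE 0.12). Targets of the ATF4 branch were mixed, with 4 of 12 higher, 3 lower and a median of 0.02. Transcripts of proteins that this route carries were also higher in callus. All 9 fibrillar collagen and bone matrix genes and all 9 cartilage matrix genes tested were called higher, by medians of 2.01 and 2.90.

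Blood cell markers moved with the same contrast. In callus all 10 neutrophil markers were lower (4 called), all 12 macrophage markers were lower (6 called) and 9 of 10 plasma and B cell markers were lower (6 called). Summed over the list, plasma and B cell markers were 13.89 to 15.23 (log2) in uninjured and 11.87 to 14.23 in callus arrays, and Jchain and Ighm differed by -4.04 and -2.83. The 1 exception was Sdc1, which was higher in callus by 2.62. Macrophage markers summed to 15.52 to 16.04 in uninjured and 12.69 to 15.46 in callus arrays. Of the 15 immediate early and heat shock genes, listed as signs of handling, 6 were higher in callus and 0 lower, with a median of 0.55. Osteoclast, endothelial and erythroid markers gave 1 higher and 1 lower of 6, 0 of 10 and 0 of 5.

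The secretory difference was also fitted with a blood cell marker as a further term, a choice made after the data were seen. With the mean neutrophil level of each array as a term, 27 members were higher and 0 lower, against 13.1% of all genes higher, and the median difference of the members was 0.87. With the Ptprc level as a term, 19 were higher and 0 lower, against 8.69% of all genes, and the median was 0.75. The 19 held all 3 receptors, 5 of 7 COPII genes, 4 of 5 translocon genes, 2 of 4 COPI genes, Creb3l1, Creb3l2 and 3 of 13 chaperones. Among the chaperones that lost their call was Hspa5, at 0.63 (SE 0.23, adjusted p = 0.081). Kdelr3 then differed by 3.71 (SE 0.44) and Creb3l2 by 1.79 (SE 0.25). The callus SSC array of conflicting surgery labels had a Ptprc level of 13.53 and a neutrophil mean of 13.60, next to the lowest uninjured values of 13.79 and 13.62. Its mean over the 40 members was 12.61, within the 12.13 to 12.99 of the callus arrays and above the 11.17 to 11.75 of the uninjured arrays. The callus array of next highest Ptprc level was BCSP of unstated surgery, at 12.74 with a neutrophil mean of 13.41. Its member mean of 12.13 was the lowest of the callus arrays. Each of these is a single array. Ptprc levels of callus (6.58 to 13.53) and uninjured arrays (13.79 to 14.74) do not overlap, so injury and blood cell content cannot be told apart.

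**Figure D3:**
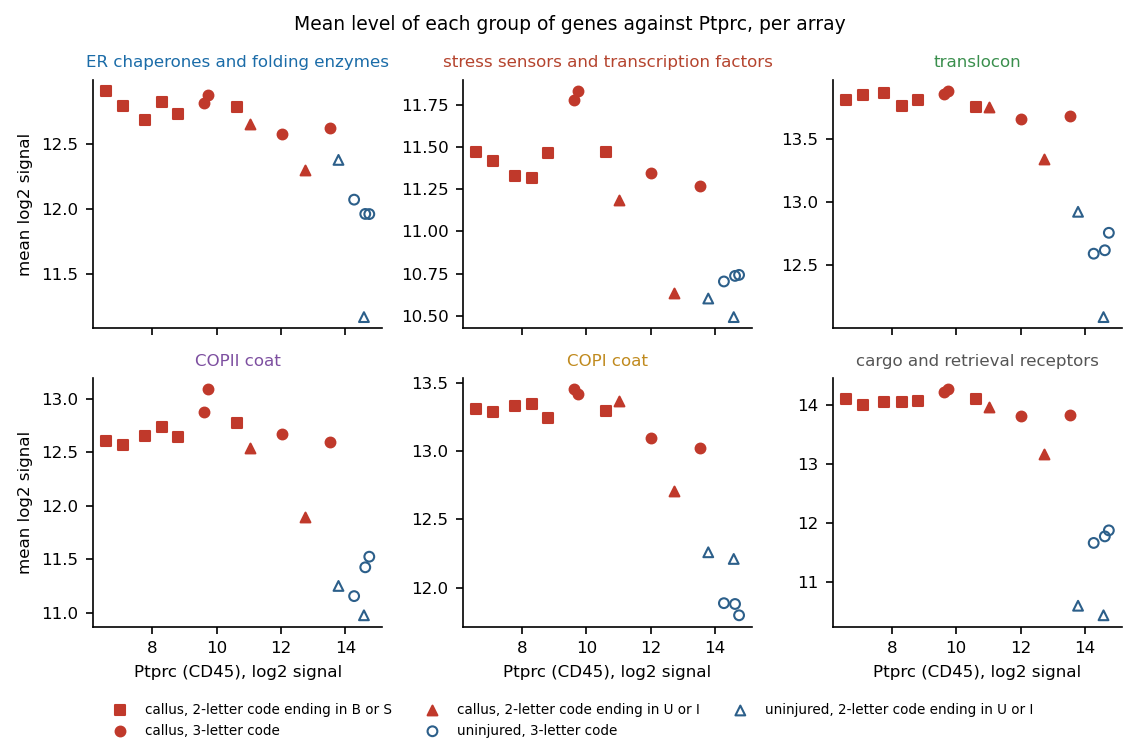
Mean log2 signal of each group of genes against the log2 signal of Ptprc, 1 point for each of the 17 arrays, filled for callus and open for uninjured, with the symbol giving the code form. Uninjured arrays crowd at the right with low means, and the callus array at a Ptprc level of 13.53 lies above every uninjured array in each panel. The callus array at 12.74 lies within the uninjured range for the chaperones and for the stress sensors and transcription factors.

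Between arrays of the same population and code form, the difference could be read without a model. There are 8 such combinations of a callus and an uninjured array, which share arrays, and 25 of the 40 members were higher in callus in all 8, as were 16% of all genes. In 5 of them each array enters once, with callus of conflicting labels set against OVX and callus of unstated surgery against sham uninjured cells. In these 5 pairs 27 of the 40 members were higher in callus throughout, as were 18% of all genes. The median over the members was 1.07 for sham callus SSC 2 minus sham uninjured SSC 1. It was 0.90 for SSC and 0.92 for BCSP of conflicting surgery labels minus OVX uninjured cells, and 1.32 for SSC of unstated surgery minus sham uninjured SSC 2. In the BCSP pair with codes ending in U or I it was 0.22, with 29 of 40 higher. That pair sets the callus array with the lowest members, at a mean of 12.13, against the uninjured array with the highest, at 11.75. In a fit of the 3-letter codes alone 25 members were called, all higher, against 13.1% of all genes higher. In one of the 4 arrays with codes ending in U or I, 4 were called higher, against 5.07% of all genes.

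**Figure D4:**
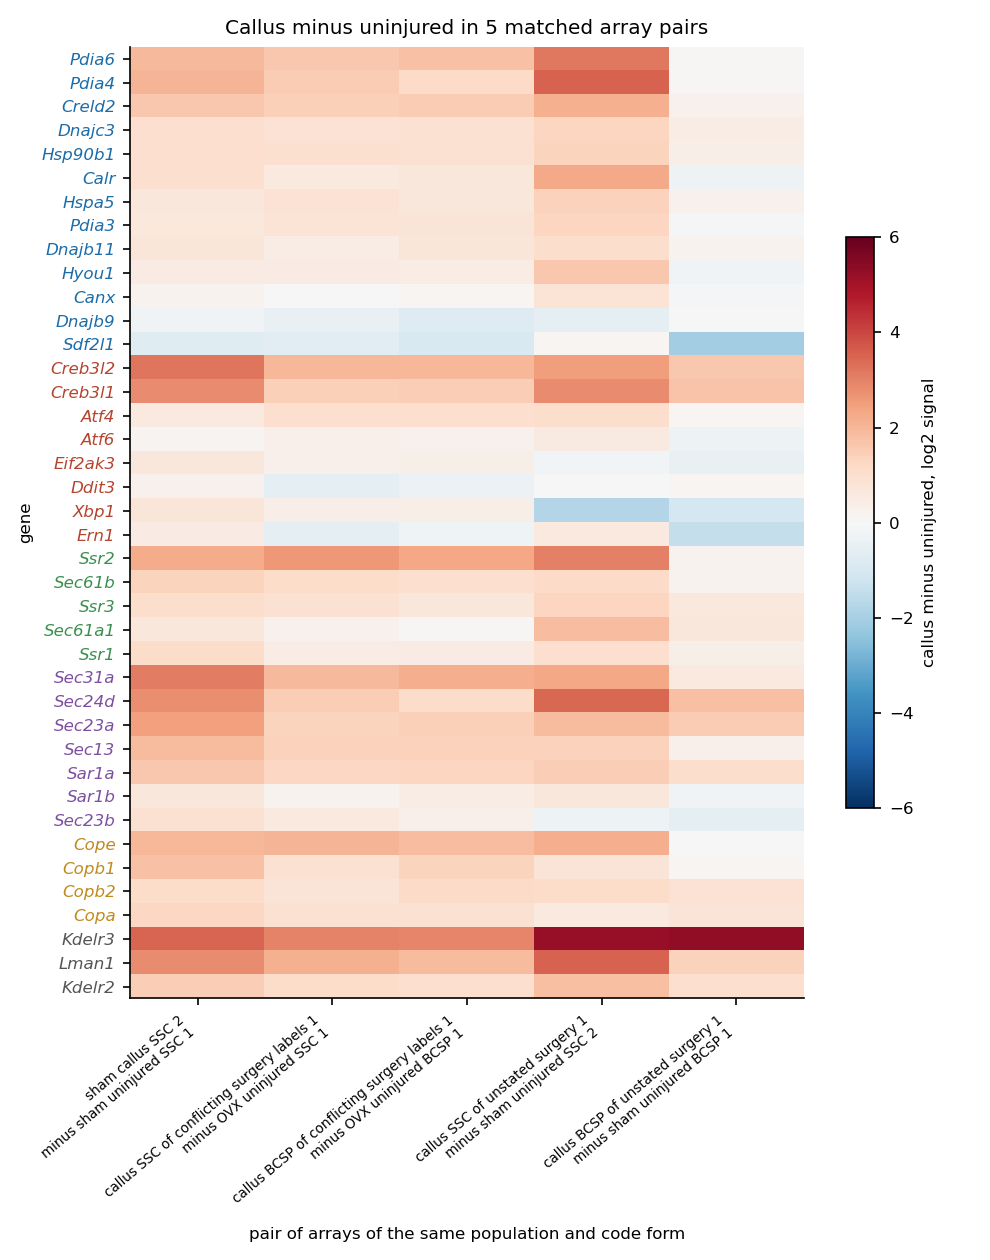
Callus minus uninjured difference in log2 signal for each of the 40 genes (rows) in the 5 pairs of arrays of the same population and code form that use each array once (columns), on a colour scale from -6 (blue) to 6 (red). Kdelr3 is red in every column, and the pair on the right, BCSP of unstated surgery, is pale for most chaperones and blue for Sdf2l1, Ern1 and Xbp1.

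The members also differed in how evenly they were set within a condition. All 13 chaperones, all 5 translocon genes and all 3 receptors varied more between the 5 uninjured than between the 12 callus arrays, with median SDs of 0.44 against 0.26 for the chaperones. For the sensors and transcription factors the order was reversed in 7 of 8, at 0.29 against 0.49. In the COPII and COPI groups 2 of 7 and 2 of 4 genes varied more between uninjured arrays. Over the whole set 26 of the 40 members did so, against 41.8% of all genes. The chaperone mean was 11.17 in sham uninjured SSC 2 and 11.96 to 12.38 in the other uninjured arrays. How far that array widened the uninjured spread was not tested. Within the 6 callus arrays with codes ending in B or S, which hold sham, OVX and OVX+E2 cells of both populations, a member spanned 0.31 at the median, against 0.64 for all genes.

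The other probe sets of the same genes were fitted too. Of the 85 member probe sets tested 50 were higher and 1 lower, against 36.3% of all probe sets called (17.7% higher), and no gene had probe sets called both ways. Probe sets of Atf6, Dnajc3, Eif2ak3, Hspa5 and Xbp1 disagreed in sign. For Dnajc3 the probe set used differed by 0.93, while its 4 others ranged from -0.02 to 0.44 with none called. For Hspa5 a bright pair of probe sets gave 0.77 and 1.09, and a dim one -0.11.

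No member passed the test between SSC and BCSP. None of the 40 was called, with 0.00689% of all genes called (1 gene, the endothelial marker Pecam1, lower in SSC), and 0 of the 40 had an unadjusted p under 0.05 against 1306 of all 14504. The median difference was -0.01 and the members ran from -0.33 (Calr) to 0.40 (Kdelr3). Single array pairs went different ways. The members' median was -0.50 in the sham uninjured pair, with 12 of 40 higher in SSC. It was 0.43 in the callus pair of unstated surgery, with 35 of 40 higher. In the other pairs it lay between -0.06 and 0.09. Kdelr3 was 0.40 higher in SSC (95% interval -0.08 to 0.88), Calr -0.33 (-0.74 to 0.08), Canx -0.21 (-0.42 to 0.01) and Sec61a1 -0.23 (-0.51 to 0.05). Among the coats the smallest p belonged to Copb1, 0.24 higher in SSC (-0.06 to 0.54), and to Sec23a at 0.19 (-0.09 to 0.46). Of the sensors Atf4 differed by 0.17 (-0.18 to 0.53) and Atf6 by -0.17 (-0.41 to 0.07). Over the 40 members the intervals reached from -0.76 to 0.88, so differences of that size remain possible for the most variable genes. Endothelial markers were lower in SSC for 10 of 10 genes, with 1 called, and their part in these values was not tested.

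Whether callus raised the members more in SSC than in BCSP was asked with an interaction term. No member was called, nor any other gene (0% of 14504). Of the 40 estimates 35 were positive, with a median of 0.34 against -0.04 for all genes, and 9 had an unadjusted p under 0.05 against 5.69% of all genes. Those of smallest p were Pdia4 at 1.42 (95% interval 0.51 to 2.34, adjusted p = 0.81), Sec24d at 1.03 (0.35 to 1.71) and Ssr3 at 0.40 (0.14 to 0.67). The code forms differed here. With 3-letter codes the SSC and BCSP pairs against OVX uninjured cells gave medians of 0.90 and 0.92, and with codes ending in U or I the SSC and BCSP pairs gave 1.32 and 0.22. The latter rest on sham uninjured SSC 2 and callus BCSP of unstated surgery, the arrays that were lowest for most members.

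No member was called in the ovary comparisons. In callus OVX against sham called 0 members and 0% of all genes, with members from -0.57 (Ddit3) to 0.51 (Dnajb9). With the code form in the fit, these differences rest on the arrays with codes ending in B or S. The sham callus arrays with 3-letter codes do not shift them. OVX+E2 against OVX in callus called 0 members and 0.0207% of all genes, with members from -0.64 (Sdf2l1) to 0.34 (Creb3l1). OVX against sham in uninjured bone called 0 members and 0.145% of all genes, with members from -1.18 (Atf4) to 1.05 (Sec24d). At an unadjusted p under 0.05 the 3 comparisons held 1, 0 and 4 members, against 2.02%, 2.29% and 7.76% of all genes. With population as a term, the error of these contrasts comes from how the SSC to BCSP difference varies between groups and not from replicate mice.

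Dnajb9, the ERdj4 gene, gave differences of opposite sign for OVX and OVX+E2 in callus. With codes ending in B or S it was 11.61 in BCSP and 11.46 in SSC of sham callus, 11.97 and 12.11 in OVX callus, and 11.57 and 11.62 in OVX+E2 callus. Both OVX arrays were above the other 4. The differences were 0.51 (95% interval 0.04 to 0.98, unadjusted p = 0.037, adjusted p = 1) and -0.44 (-0.91 to 0.02), and the 2 contrasts share the OVX arrays. Ddit3 differed by -0.57 between OVX and sham callus (-1.28 to 0.13), with 10.31 in BCSP and 10.91 in SSC of sham against 9.97 and 10.11 of OVX. Xbp1 differed by 0.33 (-0.12 to 0.78). Under OVX+E2, Canx differed by -0.26 (-0.74 to 0.23) and Hsp90b1 by -0.22 (-0.64 to 0.19). In the same contrast all 10 neutrophil markers were higher in OVX+E2, with a median of 1.67 and 0 called, and their part in these values was not tested.

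The callus arrays of conflicting labels were lower for some members than the sham callus arrays of the same code form. Creb3l1 was 9.57 in BCSP and 9.48 in SSC against 11.38 and 10.80 in sham, and Sec31a was lower by 1.31 in BCSP and by 1.21 in SSC on the log2 scale. In SSC 37 of 40 members were lower, with a median difference of -0.32 against -0.15 for all genes, and in BCSP 26 of 40, with a median of -0.17 against -0.08. All genes thus shifted down as well, and the share of all genes that was lower was not counted. The neutrophil means of the conflicting arrays were 12.40 and 13.60 against 11.16 and 11.07 in sham, and the part of this in the difference was not tested. Counted as OVX in a fit of the 3-letter codes alone, they gave 7 members lower and 0 higher, against 2.12% of all genes lower.

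In uninjured bone Atf4 was the member that differed most between OVX and sham. It was 11.49 in BCSP and 11.67 in SSC of OVX mice against 12.55 in BCSP and 12.81 and 12.03 in SSC of sham mice, so that both OVX arrays were the lowest. The difference was -1.18 (95% interval -1.77 to -0.59, unadjusted p = 0.0010, adjusted p = 0.17). Sec24d and Sec23a were higher in OVX, at 1.05 (0.16 to 1.94) and 0.93 (0.30 to 1.55), and for both genes each OVX array was above each sham array. With the code form in the fit these values rest on the 1 sham array that shares the form of the OVX arrays, sham uninjured SSC 1.

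**Figure D5:**
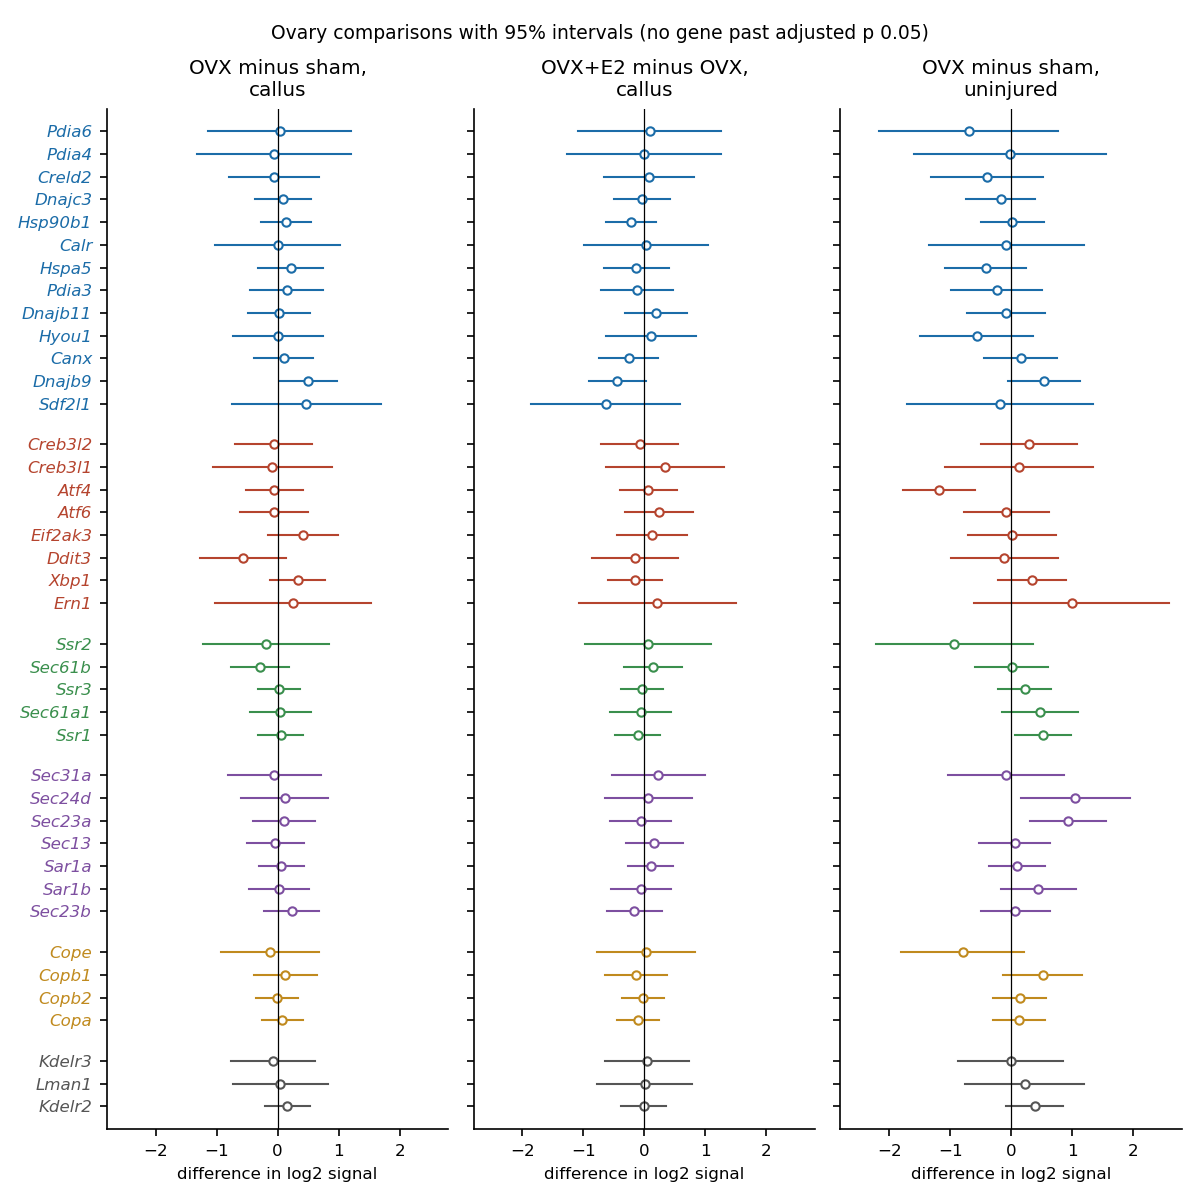
Difference in log2 signal for each of the 40 genes in the 3 ovary comparisons, with bars for the 95% interval. No point is filled, since no member had an adjusted p under 0.05, and the uninjured comparison on the right spreads widest, from -1.18 for Atf4 to 1.05 for Sec24d.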

How the data were processed

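RNA was amplified in 2 rounds and hybridized to 17 Affymetrix mouse expression arrays. The deposited log2 values were made by the authors, whose methods name dChip and Gene Expression Commons while the submitters' processing notes name MAS5 without a version, so the tool is not settled. Control probe sets (64 of 45101) were left out. Values were quantile normalized on the linear scale, floored at the 20th percentile (log2 5.95), returned to log2 and reduced to the probe set of highest mean for each of 18193 genes. Tests covered the 14504 genes that reached the 40th percentile (7.20) on 2 or more arrays, with probe intensity and array number limiting precision.

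Differences were fitted with limma 3.58.1 in R 4.3.3 (eBayes with trend), with Benjamini-Hochberg adjusted p under 0.05. Comparisons of injury and population took injury, population and code form as terms and the SSC and BCSP arrays of 1 code stem as a random block (correlation 0.13, 12 residual degrees of freedom). Ovary comparisons took surgery group, population and code form (7 residual degrees of freedom), and their p-values may be too small because arrays of a pair are not independent. The pipeline was tested on simulated data. The members and gene lists were chosen with earlier results of these data known. Members named with values are those of smallest p, up to 5 in each direction by role for injury, 2 by role for population and 3 for each other comparison, plus those whose probe sets disagree. Further genes were named as up to 3 of smallest p of a list or picked as examples with their values in view. Promoters and coordinates are from RefSeq (GRCm38.p6).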

Additional observations from a re-analysis of the deposited data

Results flagged for a closer look

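Single arrays set off from the rest of their condition (a gap to the nearest array that is large for a group of 4 or 5) occurred in 6 of 80 groups examined, where chance alone gives about 1 in 20. In sham uninjured SSC 2, Pdia3 was 12.65 (the other uninjured arrays lay at 13.62 to 13.89), Atf6 was 10.16 (10.84 to 11.07) and Lman1 was 10.06 (10.98 to 11.35). In sham uninjured SSC 1, Sar1b was 11.99 against 12.31 to 12.43. In sham callus, Canx was 13.40 in BCSP 1 against 13.17 to 13.21, and Ssr1 was 14.07 in SSC 2 against 13.75 to 13.78.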

How the results depend on the processing

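The count of 31 members called between callus and uninjured bone stayed within 1.5 times under 33 of 35 alternatives. It was 4 with codes ending in U or I alone and 19 with the Ptprc level as a term, chosen after seeing the data, and 27 to 32 when 1 array was left out. Without the block for array pairs 32 members were called, and that block changed no count of the other comparisons. Numbers in the labels do not pair the samples, and the pairs rest on the title codes. No member was called between SSC and BCSP or in the interaction under any of 30 alternatives each, or between OVX+E2 and OVX under 27. OVX against sham callus gave 7 with 3-letter codes alone and the conflicting arrays as OVX. OVX against sham in uninjured bone gave 2 without the code form, and 0 to 1 when 1 array was left out (1, Atf4, without sham uninjured BCSP 1 or SSC 2). Signs of uncalled differences turned as follows, the cause not being tested. For callus, Ddit3 was 0.051 with codes ending in U or I alone, 0.18 with sham arrays alone, 0.17 without the conflicting arrays, and -0.18 to 0.068 when 1 array was left out. Eif2ak3 was -0.32 with codes ending in U or I alone, and Ern1 was 0.27 with sham arrays alone and -0.63 to 0.048 when 1 array was left out. Xbp1 was 0.43 with 3-letter codes alone, 0.066 without the code form, 0.45 with ovary surgery as a term (adjusted p = 0.017), 0.56 with sham arrays alone and 0.43 without the arrays of unstated surgery. The called difference of Dnajc3 became -0.018 with the probe set of widest range. For SSC against BCSP that probe set gave -0.30 for Atf4, 0.39 for Copa and 0.080 for Kdelr2, and Ssr2 was 0.10 without sham uninjured BCSP 1 (range -0.31 to 0.10 with 1 array left out). The lower call of Dnajb9 was lost under 21 of 34 alternatives.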
